A study of Mus musculus with 9 samples.

Results

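The genes examined encode the enzymes that keep ATP available in skeletal muscle, together with the oxygen-binding protein myoglobin: Ckm, Ckb, Ckmt2, Pygm, Pgam2, Eno3, Mb, Ampd1, Phkg1 and Phka1. They were chosen by symbol, each through the probe set that carried exactly 1 gene symbol, and all 10 were measured among 19661 genes, each by a single probe set. RNA came from cultured mouse myoblasts, the dividing precursors of skeletal muscle, of Balb/c strain background, kept in Ham's F10 medium to which 20% fetal bovine serum and 4 ng/ml of the growth factor bFGF were added. The 9 arrays fell into 3 groups of 3: myoblasts with an empty vector (labelled CTAP Control), myoblasts overexpressing Pax3 and myoblasts overexpressing Pax7. The paired-box factors Pax3 and Pax7 act in muscle precursors and satellite cells. The labels do not say which promoter drove the constructs or whether the cells were clones. Whether cultures were grown apart for the 3 samples within each group is not stated, and the p-values therefore reflect the spread among these samples alone, which may be technical.

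Muscle stores high-energy phosphate as phosphocreatine, from which creatine kinases regenerate ATP at the myofibril and in the mitochondrion. Phosphorylase kinase switches on glycogen phosphorylase, which releases glucose phosphate from glycogen for glycolysis, where phosphoglycerate mutase and enolase catalyse late steps. AMP deaminase removes AMP during heavy work, and myoglobin stores oxygen. Many of these proteins have a muscle form, which is switched on as myoblasts differentiate, and a form used in other tissues.

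Creatine kinase, phosphoglycerate mutase 2 and myoglobin transcripts were lower in both kinds of Pax-overexpressing myoblasts than in control myoblasts, and Ckm, Pgam2 and Mb were lowest with Pax7. Ckm was 6.95-fold lower with Pax3 and 9.72-fold lower with Pax7, Pgam2 3.97-fold and 5.82-fold lower, and Mb 2.47-fold and 3.29-fold lower. Muscle glycogen phosphorylase Pygm fell 2.06-fold with Pax7, did not pass the test with Pax3, and was 2.23-fold lower with Pax7 than with Pax3. Of the 10 genes, 7 fell, 0 rose and 3 did not pass the test with Pax3 (limma adjusted p under 0.05 over all genes; 39.6% of all genes were called in that comparison, 19.8% higher and 19.7% lower). With Pax7, 9 fell, 0 rose and 1 did not pass (43.2% of all genes were called, 21.6% higher and 21.5% lower). Falls of at least 1 log2 unit were found for 4 of the genes with Pax3 and 5 with Pax7, against 2.51% and 3.29% of all genes. All arrays of the Pax group lay below all control arrays for 8 of the 10 with Pax3 and 9 with Pax7, against 22.3% and 26.2% of all genes. The median log2 difference from control over the 10 genes was -0.35 with Pax3 and -0.77 with Pax7, against 0.016 and 0.027 over all genes. The genes were picked with results of these arrays known, and both comparisons share the control arrays, so these counts describe the list and are no test of it.

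**Figure D1:**
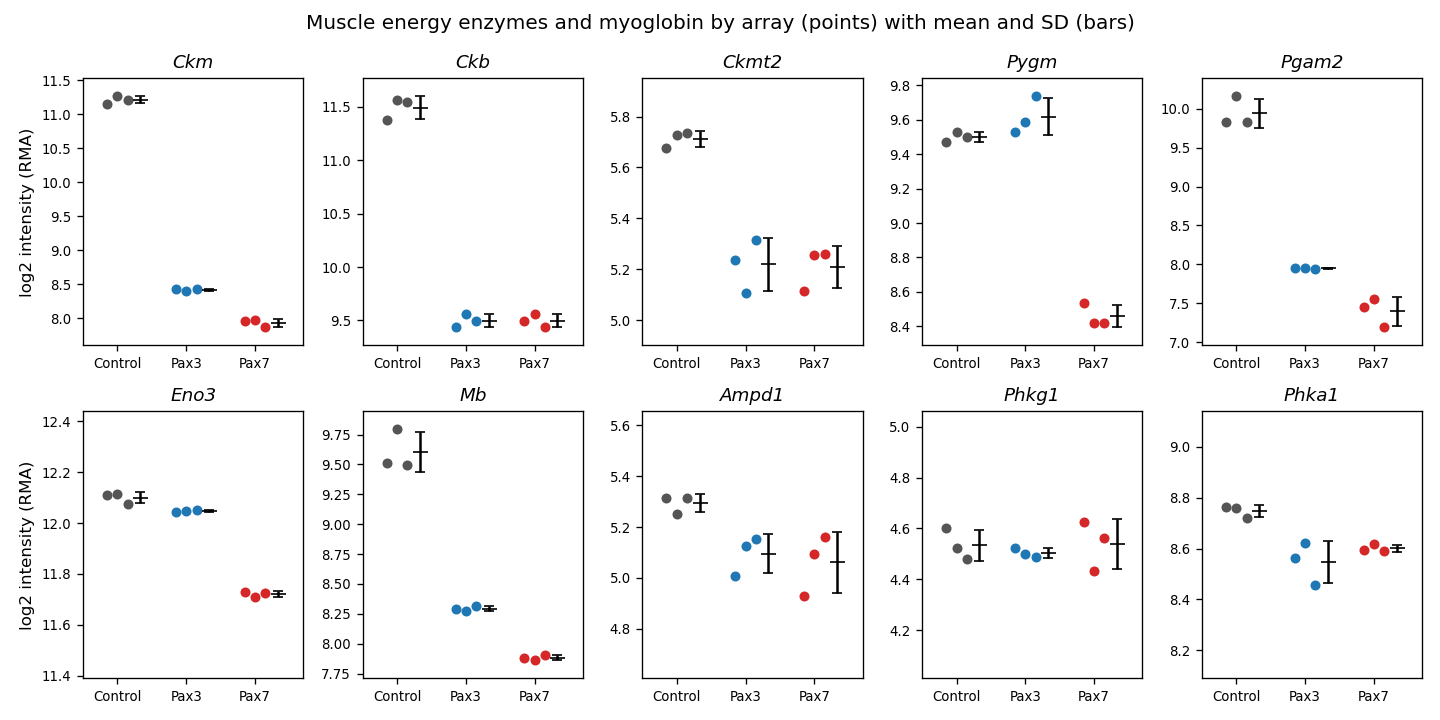
Log2 intensity of the 10 genes on each array (points) with the mean and SD of the 3 arrays of a group (bars); the span of the vertical axis differs between panels and is at least 1 log2 unit. Ckm, Pgam2 and Mb step down from control to Pax3 to Pax7 arrays, Ckb covers the same low range in both Pax groups, Pygm is low in Pax7 arrays alone, and Phkg1 overlaps in every group.

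The constructs and the cells were checked first. The log2 intensity of Pax3 was 5.83 ± 0.071 in control arrays, 11.05 ± 0.046 with Pax3 and 6.82 ± 0.039 with Pax7, and that of Pax7 was 10.51 ± 0.081, 8.18 ± 0.065 and 12.28 ± 0.030 (SD, n = 3 each). Array medians lay between 6.397 and 6.477 log2 units, and the number of arrays limited the precision. Xist, the RNA that coats the silenced X chromosome, was at 4.77 ± 0.13 in control arrays, 11.96 ± 0.071 in Pax3 and 11.72 ± 0.033 in Pax7 arrays, while the Y-linked gene Eif2s3y was at 8.78 ± 0.040, 3.12 ± 0.019 and 3.08 ± 0.014 (SD, n = 3 each). In both comparisons against control, overexpression and this difference in sex-linked transcripts therefore cannot be told apart; the comparison of Pax7 with Pax3 arrays has no such split. Of 8 myoblast markers, 2 rose, 5 fell and 1 did not pass with Pax3, and 3 rose and 5 fell with Pax7. The gene Pax7 itself is 1 of the 8, among the falls with Pax3 and the rises with Pax7. Over all genes, 39.6% were called with Pax3 and 43.2% with Pax7. Myf5, a myogenic factor of early myoblasts, rose from 9.40 ± 0.084 log2 units in control arrays to 11.37 ± 0.049 with Pax3 and 11.42 ± 0.067 with Pax7, and the adhesion molecule Vcam1 from 9.80 ± 0.087 to 10.68 ± 0.025 and 10.42 ± 0.024 (SD, n = 3 each). The myogenic factor Myod1 was at 12.62 ± 0.023, 12.50 ± 0.060 and 12.18 ± 0.022, and its log2 difference of -0.12 with Pax3 did not pass (limma adjusted p = 0.053). That difference passed without Pax3 replicate 3 (0.0319) or without the dimmer 50% of genes (0.0252). It also passed with a trended and robust prior (0.00428) or with arrays centred on their medians (0.0171). The muscle filament gene Des fell from 12.13 ± 0.044 to 11.62 ± 0.024 and 10.80 ± 0.032. Cdh15, Itga7 and Ncam1 also fell with both factors. Their means in control, Pax3 and Pax7 arrays were 10.79, 10.06 and 10.15 for Cdh15, 10.93, 10.46 and 10.23 for Itga7, and 12.21, 11.67 and 11.07 for Ncam1.

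Sequences before the transcript starts are shown for Ckm, Pgam2 and Mb, which fell with both factors and were lowest with Pax7, for Pygm, which fell with Pax7, and for Ckb, because the CAGCTG form of the E-box is a site that myogenic factors such as MyoD and myogenin can bind. The RefSeq table of start windows (GRCm38.p6; 250 bases before to 50 after the start) matched 9 of the 10 genes with 11 windows; Ampd1 was not among them. CAGCTG, which reads the same on both strands, was found in a window of 7 genes: Ckm, Ckmt2, Eno3, Mb, Pgam2, Phka1 and Pygm. By window, CAGCTG was present in 8 of the 11, against 16.3% of all 32851 windows of that length. The wider E-box CANNTG, which includes it, was present in 10 of the 11 and in 72.3% of all windows. Mb had several windows, not all of which are shown. Overlapping Mb windows held the same copy of CAGCTG, and each of them is counted among the 8. The Mb window with chr15:77050669-77050918 before its start held no CAGCTG. Phkg1 held CANNTG and not CAGCTG, and Ckb held neither. The 250 bases before the start are given 5′ to 3′ on the gene's strand, with CAGCTG in capitals.
Ckm, chr7:19410844-19411093, plus strand: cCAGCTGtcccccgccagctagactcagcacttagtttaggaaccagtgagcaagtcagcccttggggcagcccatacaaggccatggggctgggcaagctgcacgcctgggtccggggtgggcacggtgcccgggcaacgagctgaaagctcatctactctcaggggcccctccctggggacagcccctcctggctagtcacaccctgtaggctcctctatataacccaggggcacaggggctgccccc
Pgam2, chr11:5803797-5804046, minus strand: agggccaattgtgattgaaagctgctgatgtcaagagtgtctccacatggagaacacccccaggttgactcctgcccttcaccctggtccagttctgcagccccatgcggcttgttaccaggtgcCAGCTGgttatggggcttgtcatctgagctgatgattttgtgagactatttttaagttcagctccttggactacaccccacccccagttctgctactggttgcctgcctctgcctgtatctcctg
Mb, chr15:77022728-77022977, minus strand: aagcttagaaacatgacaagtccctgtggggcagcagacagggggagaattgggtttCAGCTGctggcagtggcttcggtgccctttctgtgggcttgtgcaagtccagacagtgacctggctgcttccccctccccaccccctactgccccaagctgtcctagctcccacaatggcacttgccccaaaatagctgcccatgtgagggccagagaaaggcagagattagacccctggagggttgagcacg
Pygm, chr19:6384158-6384407, plus strand: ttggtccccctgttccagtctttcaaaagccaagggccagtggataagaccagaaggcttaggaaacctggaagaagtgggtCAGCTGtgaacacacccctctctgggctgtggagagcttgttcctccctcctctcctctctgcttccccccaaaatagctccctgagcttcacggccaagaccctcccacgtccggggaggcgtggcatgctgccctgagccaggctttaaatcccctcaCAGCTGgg
Ckb, chr12:111672339-111672588, minus strand: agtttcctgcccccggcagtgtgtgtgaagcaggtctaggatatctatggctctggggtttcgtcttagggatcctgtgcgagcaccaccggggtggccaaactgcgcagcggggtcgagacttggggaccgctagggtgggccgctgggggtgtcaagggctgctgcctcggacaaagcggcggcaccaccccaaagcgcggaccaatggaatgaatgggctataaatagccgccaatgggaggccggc

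In these windows CAGCTG began 249 bases before the start in Ckm, 125 in Pgam2, 193 in Mb and 168 and 8 in Pygm. The MEF2 consensus, searched on both strands, matched in Pgam2 as CTATTTTTAA, 80 bases before the start, and in Ckb as CTATAAATAG, 29 bases before the start, where it overlapped TATAAA. It was present in 3.19% of all windows. Pygm, which fell with Pax7 and did not pass with Pax3, held 2 copies of CAGCTG. Ckb, 3.99-fold lower with either factor, held no CAGCTG and had the MEF2 match. Whether these letters bear on the falls was not tested. A match is a description of the letters and not evidence of binding.

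Ckm, the cytosolic creatine kinase of differentiated muscle (probe set 10550698), had log2 intensities of 11.16, 11.26 and 11.22 in control arrays, 8.42, 8.40 and 8.43 with Pax3 and 7.96, 7.97 and 7.86 with Pax7. The 3 groups did not overlap, and the Pax7 arrays were the lowest. The log2 difference from control was -2.80 ± 0.046 with Pax3 and -3.28 ± 0.046 with Pax7 (SE, n = 3 per group; limma adjusted p = 1.27e-11 and 2.78e-12). Ckm was also lower in Pax7 than in Pax3 arrays, by -0.49 ± 0.046 (limma adjusted p = 3.16e-05). In whole cultures, fewer cells with a transcript and less of it per cell cannot be told apart.

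Ckb, the cytosolic creatine kinase of brain and of undifferentiated cells (probe set 10402708), fell by as much in both groups. It stood at 11.37, 11.56 and 11.55 log2 units in control arrays, 9.44, 9.56 and 9.50 with Pax3 and 9.50, 9.56 and 9.43 with Pax7. Every Pax array was below every control array, while the Pax3 and Pax7 arrays covered the same range. Ckb was 3.99-fold lower than control with either factor (SE 0.061 on the log2 scale, n = 3 per group; limma adjusted p = 8.4e-10 with Pax3 and 4.63e-10 with Pax7). Between Pax7 and Pax3 arrays the 95% interval of the difference ran from -0.13 to 0.13 log2 units (limma adjusted p = 0.999). The log2 ratio of Ckm to Ckb differed from control by -0.80 ± 0.055 with Pax3 and -1.28 ± 0.037 with Pax7 (SE, n = 3 per group). The ratio of Ckm to Ckb did not overlap between any 2 of the groups.

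Ckmt2, the creatine kinase of muscle mitochondria (probe set 10410984), had a low signal and a smaller fall. Its log2 intensities were 5.68, 5.73 and 5.73 in control arrays, 5.23, 5.11 and 5.31 with Pax3 and 5.11, 5.25 and 5.26 with Pax7. All Pax arrays lay below the control arrays, and the Pax groups overlapped. It fell by 1.41-fold with Pax3 and 1.42-fold with Pax7 (limma adjusted p = 5.47e-05 and 3.97e-05), and the difference between Pax7 and Pax3 arrays had a 95% interval of -0.14 to 0.13 log2 units. Ckmt1, the mitochondrial form of other tissues, did not pass in either comparison with control (-0.11 ± 0.060 and -0.04 ± 0.060).

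Enzymes that supply creatine and adenylates split in direction. Gatm, which makes the precursor of creatine, fell more than any other gene of the 4 pathway lists. Its log2 intensity was 11.61, 11.61 and 11.51 in control, 9.30 in each of the Pax3 arrays and 8.45, 8.16 and 8.11 in Pax7 arrays. The groups were fully separate, with a fall of 4.85-fold with Pax3 and 10.1-fold with Pax7 (limma adjusted p = 1.92e-09 and 6.39e-11) and a further 2.08-fold difference between Pax7 and Pax3 arrays (limma adjusted p = 4.56e-06). Over the 11 measured genes of creatine and adenylate phosphotransfer outside the 10, 4 rose, 5 fell and 2 did not pass with Pax3. With Pax7, 3 rose, 5 fell and 3 did not pass. The share called was 81.8% and 72.7%, against 39.6% and 43.2% of all genes. Ak4, a mitochondrial adenylate kinase, was 3.29-fold and 3.22-fold higher than control with Pax3 and Pax7 (limma adjusted p = 2.52e-07 and 2.12e-07). Adssl1, the muscle adenylosuccinate synthase that works in a cycle with AMP deaminase, rose 1.79-fold with Pax3 (limma adjusted p = 1.49e-05) and had a log2 difference of 0.17 ± 0.087 with Pax7 (adjusted p = 0.147; 0.00847 without control replicate 2, with a difference of 0.28, and 0.0369 with a replicate block), and it was lower in Pax7 than in Pax3 arrays by -0.67 ± 0.087 (adjusted p = 0.000317).

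Of the AMP deaminases, Ampd1 and Ampd2 were slightly lower than control and Ampd3 was higher. Ampd1, the muscle form (probe set 10494873), was dim, at 5.31, 5.25 and 5.31 log2 units in control arrays, 5.01, 5.13 and 5.15 with Pax3 and 4.93, 5.09 and 5.16 with Pax7. All Pax arrays were below the control arrays by a small margin. Its log2 difference of -0.20 ± 0.063 with Pax3 passed (limma adjusted p = 0.0286) but not without control replicate 1 (0.0841), control replicate 3 (0.0809) or Pax3 replicate 1 (0.111), and that of -0.23 ± 0.063 with Pax7 passed (adjusted p = 0.0115). Ampd3, the form of red cells and other tissues, was at 9.90, 9.94 and 10.02 in control arrays, 11.32, 11.32 and 11.33 with Pax3 and 11.46, 11.53 and 11.44 with Pax7. It was 2.60-fold higher with Pax3 and 2.89-fold higher with Pax7 (limma adjusted p = 1.58e-09 and 3.95e-10), and every Pax array was above every control array. Ampd2, of liver and other tissues, fell by 0.23 log2 units with Pax3 (adjusted p = 0.00282) and by 0.15 with Pax7 (0.0287). The Pax7 call for Ampd2 ended without control replicate 2 (0.0525) or 3 (0.0987), or without Pax7 replicate 1 (0.063), 2 (0.0554) or 3 (0.0949).

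In glycogen breakdown, muscle phosphorylase differed most between the Pax groups. Pygm, muscle glycogen phosphorylase (probe set 10460947), had log2 intensities of 9.47, 9.53 and 9.50 in control arrays, 9.53, 9.59 and 9.74 with Pax3 and 8.54, 8.42 and 8.42 with Pax7. The Pax7 arrays lay far below all others, and the Pax3 arrays lay just above the control arrays. Pygm changed by -1.04 ± 0.058 with Pax7 (SE, n = 3 per group; limma adjusted p = 6.76e-08) and by 0.12 ± 0.058 with Pax3, which did not pass (adjusted p = 0.141; 95% interval -0.0098 to 0.25). The direct difference between Pax7 and Pax3 was -1.16 ± 0.058 (adjusted p = 3.01e-07). Pygm alone of the 10 genes had a difference of at least 1 log2 unit between the Pax groups, against 0.331% of all genes called lower by that margin.

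The phosphorylases of other tissues rose. Pygb, the brain form, stood at 8.83, 8.71 and 8.75 log2 units in control arrays, 9.18, 9.34 and 9.24 with Pax3 and 9.54, 9.55 and 9.52 with Pax7, and was 1.40-fold and 1.71-fold higher with Pax3 and Pax7 (limma adjusted p = 1.51e-05 and 2.68e-07). Pygl, the liver form, had a low signal, with means of 5.25, 5.65 and 6.18 log2 units in control, Pax3 and Pax7 arrays. Its Pax3 arrays all held the same value (SD 0.0). Pygl was 1.31-fold and 1.895-fold higher than control with Pax3 and Pax7 (limma adjusted p = 0.000708 and 6.84e-07). Both were also higher in Pax7 than in Pax3 arrays (adjusted p = 0.00261 for Pygb and 0.000279 for Pygl), with no overlap between groups. With Pax7, the log2 ratio of Pygm to Pygb differed from control by -1.81 and that of Pygm to Pygl by -1.96.

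The muscle subunits of phosphorylase kinase differed little from control. Phka1, the regulatory alpha subunit of muscle, whose gene lies on the X chromosome (probe set 10606102), was at 8.76, 8.76 and 8.72 log2 units in control arrays, 8.56, 8.62 and 8.46 with Pax3 and 8.59, 8.62 and 8.59 with Pax7. All Pax arrays were below the control arrays. It fell by 0.20 log2 units with Pax3 (limma adjusted p = 0.00551) and by 0.15 with Pax7 (0.0274); the call with Pax7 ended without control replicate 1 (0.0786) or 2 (0.0784) or without Pax7 replicate 1 (0.0729), 2 (0.0541) or 3 (0.0785). Phkg1, the catalytic gamma subunit of muscle (probe set 10534085), overlapped in all groups, with values from 4.48 to 4.60 in control arrays, 4.49 to 4.52 with Pax3 and 4.43 to 4.63 with Pax7. Its 95% intervals against control were -0.15 to 0.092 with Pax3 and -0.12 to 0.13 with Pax7. Of the liver forms, Phka2 fell by 0.16 log2 units with Pax3 (limma adjusted p = 0.0185; 0.0592 without control replicate 2 and 0.064 without control replicate 3) and by 0.46 log2 units with Pax7 (adjusted p = 1.27e-05), and was lower in Pax7 than in Pax3 arrays by -0.29 ± 0.048 (adjusted p = 0.00144), while Phkg2 did not pass in either comparison with control (adjusted p = 0.246 with Pax3 and 0.386 with Pax7). Phkb, the beta subunit shared between tissues, was at 9.30, 9.37 and 9.24 log2 units in control arrays, 9.22, 9.21 and 8.98 with Pax3 and 8.90, 8.82 and 8.90 with Pax7, and fell by 0.43 with Pax7 (limma adjusted p = 0.000315). Its difference of -0.16 with Pax3 did not pass (0.0817). That difference passed without the dimmer 50% of genes (0.0432) or with arrays centred on their medians (0.0483). Phkb was lower in Pax7 than in Pax3 arrays by -0.27 ± 0.068 (0.0206). This call ended without Pax3 replicate 1 (0.089) or 2 (0.0761) or Pax7 replicate 2 (0.0873) or 3 (0.0511). It also ended when only those groups were fitted (0.0517). Of the 17 measured genes of glycogen breakdown and synthesis outside the 10, 5 rose, 1 fell and 11 did not pass with Pax3. With Pax7, 6 rose, 3 fell and 8 did not pass. The share called was 35.3% with Pax3 and 52.9% with Pax7, near the 39.6% and 43.2% of all genes.

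Pgam2, the muscle phosphoglycerate mutase of late glycolysis (probe set 10384015), was at 9.83, 10.16 and 9.82 log2 units in control arrays, 7.95, 7.95 and 7.94 with Pax3 and 7.45, 7.55 and 7.19 with Pax7. The groups were fully separate in the order control, Pax3, Pax7. It changed by -1.99 ± 0.10 with Pax3 and -2.54 ± 0.10 with Pax7 (SE, n = 3 per group; limma adjusted p = 4.67e-08 and 4.28e-09), and by -0.55 ± 0.10 between Pax7 and Pax3 arrays (adjusted p = 0.00328). Eno3, the muscle enolase that acts on the next step (probe set 10377938), was at 12.11, 12.11 and 12.07 in control arrays, 12.04, 12.05 and 12.05 with Pax3 and 11.73, 11.71 and 11.73 with Pax7. The Pax3 arrays lay only just below the control arrays, a difference that did not pass (-0.053 ± 0.037; limma adjusted p = 0.313), whereas Eno3 fell by 0.38 log2 units with Pax7 (adjusted p = 7.15e-06) and was 1.25-fold lower in Pax7 than in Pax3 arrays (adjusted p = 0.000111). Probe sets of similar paralogs, as among enolases, mutases and creatine kinases, can share signal, and the non-muscle mutase Pgam1 and enolase Eno1 were not analysed here.

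The wider glycolytic list split in direction. Of the 18 measured genes of glucose uptake, glycolysis and lactate transport outside the 10, 9 rose, 4 fell and 5 did not pass with Pax3. With Pax7, 10 rose, 4 fell and 4 did not pass. The share called was 72.2% and 77.8%, against 39.6% and 43.2% of all genes. Slc16a3, a lactate exporter, was at 7.87, 7.78 and 7.85 log2 units in control arrays, 10.12, 10.23 and 10.23 with Pax3 and 10.61, 10.52 and 10.57 with Pax7. It was 5.14-fold and 6.65-fold higher than control (limma adjusted p = 5.09e-11 and 1.11e-11), with no overlap between groups. Hexokinase Hk2, which traps glucose in the cell, was 3.91-fold and 3.62-fold higher with Pax3 and Pax7 (adjusted p = 2.7e-10 and 2.46e-10). Aldoc, an aldolase of brain, was 1.81-fold lower with Pax3 and 1.54-fold lower with Pax7 (adjusted p = 2.03e-06 and 2.2e-05). Pfkp, the platelet form of phosphofructokinase, was 2.68-fold higher with Pax7 (adjusted p = 5.13e-08) and stood at a log2 difference of 0.21 ± 0.077 with Pax3 (adjusted p = 0.0521; 0.0174 without Pax3 replicate 3). That difference was 0.12 without Pax3 replicate 2, and it passed when the arrays were quantile normalised again (0.0134), with a trended and robust prior (0.0347) or without the dimmer 50% of genes (0.0263). Pfkp differed by 1.21 ± 0.077 between Pax7 and Pax3 arrays (adjusted p = 1.71e-06).

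Mb, the myoglobin gene (probe set 10430140), was at 9.51, 9.79 and 9.50 log2 units in control arrays, 8.29, 8.28 and 8.32 with Pax3 and 7.88, 7.86 and 7.91 with Pax7. The groups were separate, and control replicate 2 stood highest, as it did for Pgam2. Mb changed by -1.31 ± 0.0705 with Pax3 and -1.72 ± 0.0705 with Pax7 (SE, n = 3 per group; limma adjusted p = 7.08e-08 and 5.1e-09), and by -0.41 ± 0.0705 between Pax7 and Pax3 arrays (adjusted p = 0.002). Cytoglobin Cygb, a globin of many tissues, had log2 differences of -0.27 ± 0.099 and -0.25 ± 0.099, which did not pass (adjusted p = 0.0538 and 0.0598). The call for Cygb turned to a fall with Pax3 without control replicate 2 (adjusted p = 0.0316) or Pax3 replicate 3 (0.00989), and with Pax7 without control replicate 2 (0.0343), Pax3 replicate 2 (0.0223) or Pax3 replicate 3 (0.0277). It also passed with a replicate block (0.0135 with Pax3 and 0.0157 with Pax7) and after repeated quantile normalisation (0.0282 and 0.0238). With Pax3 it further passed with a trended and robust prior (0.0448) or with arrays centred on their medians (0.0365), and with Pax7 when only those groups were fitted (0.0244).

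**Figure D2:**
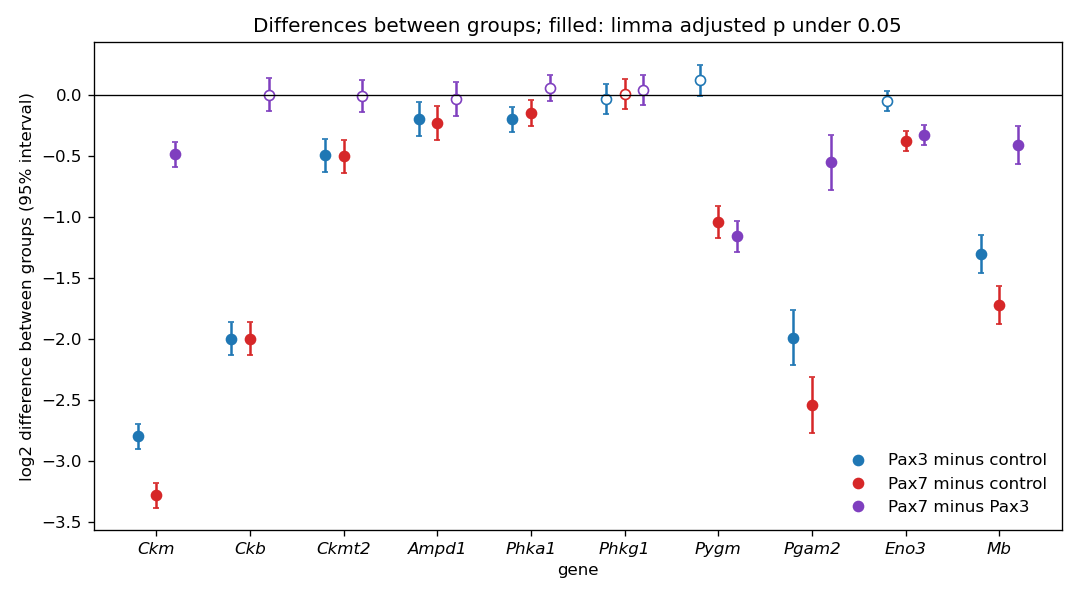
Log2 differences between groups for the 10 genes with 95% intervals from limma; filled points passed at an adjusted p under 0.05. The Pax7 minus Pax3 difference is clear of 0 for Ckm, Pygm, Pgam2, Eno3 and Mb, and its interval includes 0 for Ckb, Ckmt2, Ampd1, Phka1 and Phkg1.

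The direct comparison of Pax7 with Pax3 arrays divided the list. Lower values with Pax7 were found for 5 of the 10 genes (Ckm, Pygm, Pgam2, Eno3 and Mb), 0 were higher and 5 did not pass (16.9% of all genes were called, 8.33% higher and 8.54% lower). The 5 genes were also those whose Pax7 arrays all lay below all Pax3 arrays, a separation that 14.6% of all genes showed downward. When a difference of more than 1.2-fold was required (limma's treat test, which called 3.99% of all genes), Ckm and Pygm stayed past the threshold, and Pgam2, Eno3 and Mb did not (adjusted p = 0.18, 0.93 and 0.516). Among the 65 measured genes of the 4 pathway lists, 10 rose and 12 fell in this comparison, and 7 passed the treat test. Gatm, the cytochrome oxidase subunit Cox8b (-0.87 ± 0.082), the AMP-activated kinase subunit Prkag3 (-0.71 ± 0.050) and Adssl1 fell furthest, and Pfkp, Pygl (0.53 ± 0.068), the lactate transporter Slc16a1 (0.39 ± 0.056) and Slc16a3 (0.37 ± 0.049) rose furthest (limma adjusted p of at most 0.00062 for these 8).

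Muscle forms were set against the other forms within each array, which gave 9 measurable pairs and 27 comparisons. An exact two-sided permutation test of 3 against 3 arrays cannot go below p = 0.1, so no pair could pass; the adjusted p over the 27 comparisons was 0.159 where groups did not overlap. With Pax7, the log2 ratio of the muscle form to the other form differed from control by -1.28 for Ckm to Ckb, -0.46 for Ckmt2 to Ckmt1, -1.81 for Pygm to Pygb, -1.76 for Ampd1 to Ampd3 and -1.46 for Mb to Cygb. The ratio of the alpha subunits Phka1 to Phka2 lay on the other side, at 0.31 ± 0.056 with Pax7 (SE, n = 3 per group). For Phkg1 to Phkg2 and Ampd1 to Ampd2 the arrays of the groups overlapped in all comparisons.

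**Figure D3:**
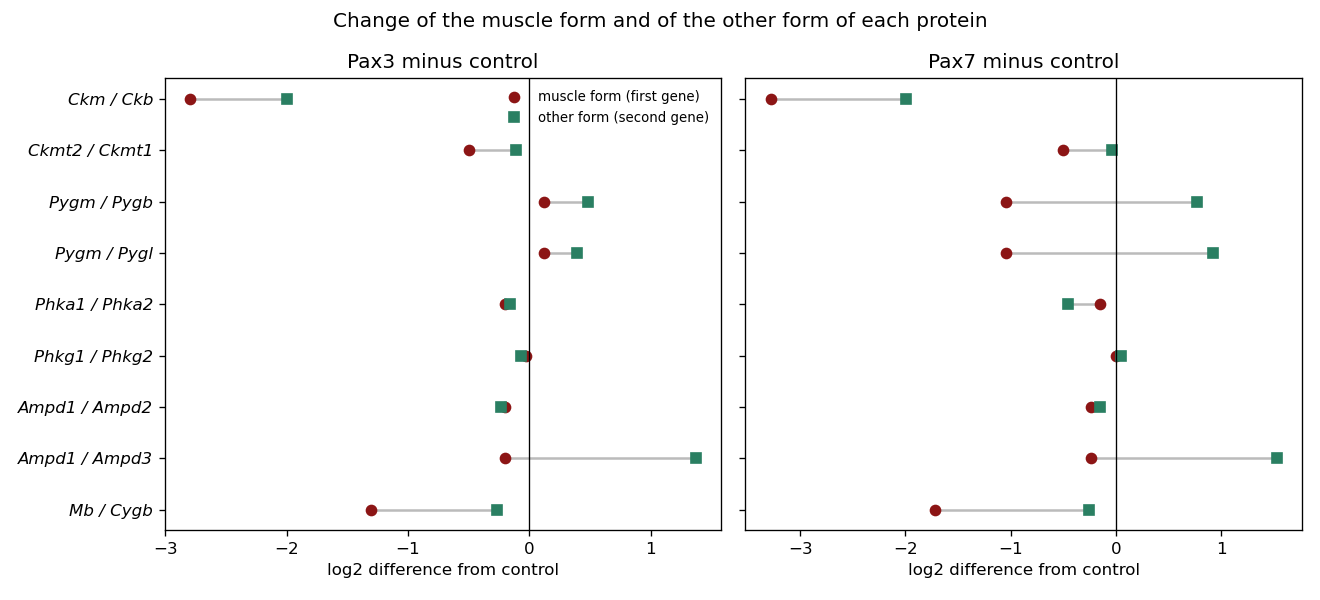
Log2 difference from control of the muscle form (circles) and of the form of other tissues (squares) for the 9 pairs, with Pax3 on the left and Pax7 on the right; the horizontal spans differ. For Pygm and its counterparts the symbols lie on opposite sides of 0 in the Pax7 panel, at -1.04 for Pygm, 0.77 for Pygb and 0.92 for Pygl.

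**Figure D4:**
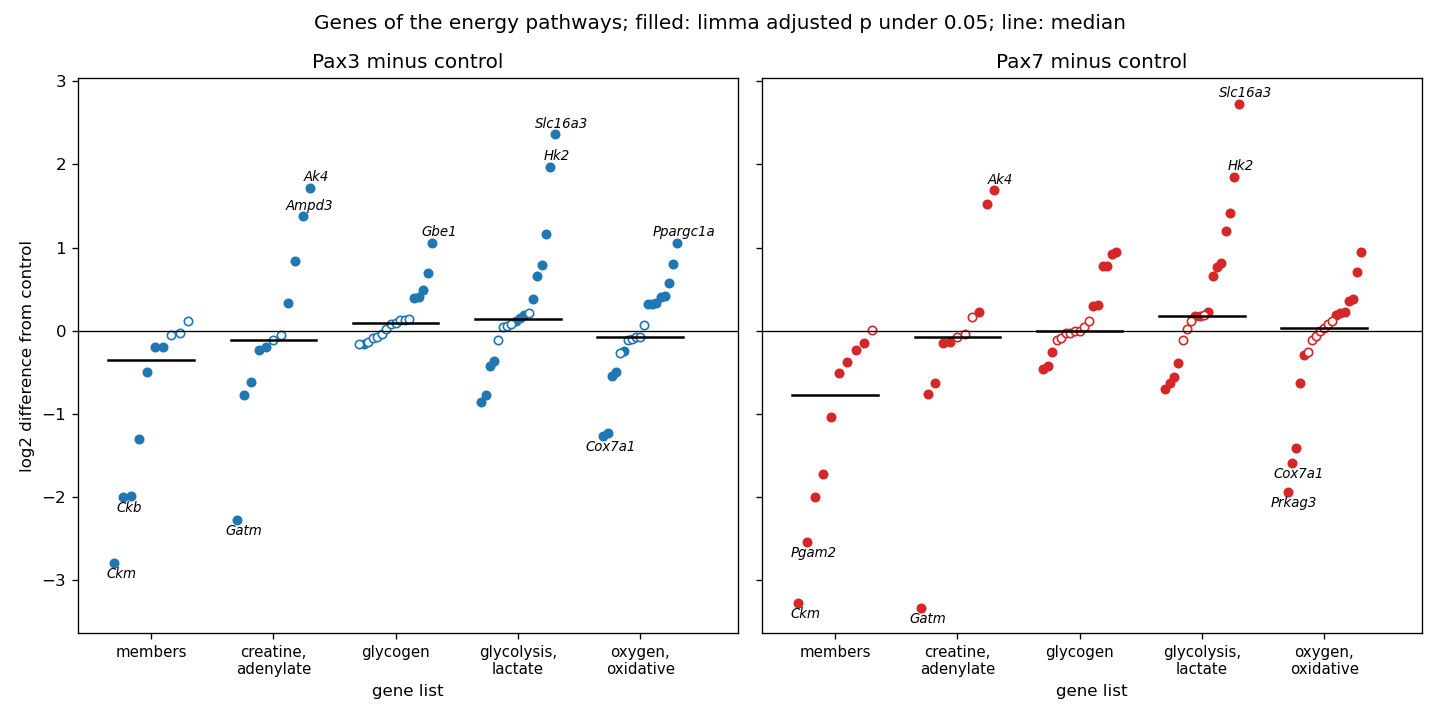
Log2 difference from control of each measured gene in the 10-gene list (members) and the 4 other energy lists, sorted within a list; filled points passed at a limma adjusted p under 0.05 and lines mark medians. The 10 genes lie at or below 0 apart from Pygm (0.12, not past) with Pax3 and Phkg1 (0.0056, not past) with Pax7, while the other lists hold genes on both sides, from Gatm at -2.28 and -3.34 to Slc16a3 at 2.36 and 2.73.

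Markers of differentiated muscle were also lower in both Pax groups, more uniformly than the energy genes, of which 7 fell with Pax3 and 9 with Pax7. All 10 measured markers (Myog, Mymk, Mymx, Myh3, Myh8, Acta1, Tnnt3, Tnnc2, Mylpf and Ttn) fell with Pax3 and with Pax7, with median log2 differences of -1.36 and -2.27, and 8 fell in Pax7 against Pax3 arrays. Of all genes, 19.7%, 21.5% and 8.54% were called lower in these comparisons. The medians over all genes were 0.016 with Pax3 and 0.027 with Pax7. The summed linear intensity of the markers ran from 19984 to 22243 in control arrays, 9739 to 10014 with Pax3 and 4539 to 5370 with Pax7. That of the 10 energy genes ran from 12265 to 13233, 7023 to 7174 and 5524 to 5620. Control replicate 2 was the highest and Pax7 replicate 3 the lowest array by both sums. Eno3 was the brightest of the 10 energy genes and weighed most in their sum. Its means were 12.10, 12.05 and 11.72 log2 units in control, Pax3 and Pax7 arrays, and it did not pass with Pax3. The differentiation factor myogenin, Myog, was 2.45-fold lower with Pax3 and 5.40-fold lower with Pax7 (limma adjusted p = 4.64e-08 and 2.13e-10). The part of these markers in the results was not tested.

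**Figure D5:**
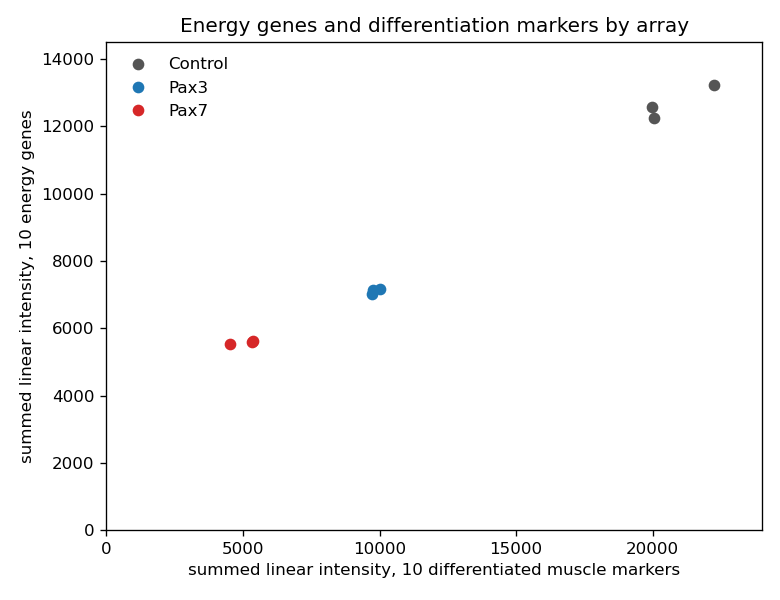
Summed linear intensity of the 10 energy genes against that of 10 markers of differentiated muscle, with a point per array. The groups form separate clusters, so no correlation is given: control arrays sit between 12265 and 13233 for the energy genes, Pax3 arrays between 7023 and 7174 and Pax7 arrays between 5524 and 5620.

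Markers of other cell types gave the following sums of linear intensity, whose part in the results was not tested. The sums of 6 smooth muscle markers were 10571 to 11184 in control arrays, 7504 to 7553 with Pax3 and 4643 to 4830 with Pax7. Against control, 4 of them were called lower and 1 higher with Pax3, and 4 lower and 0 higher with Pax7. Of all genes, 19.7% were called lower and 19.8% higher with Pax3, and 21.5% lower and 21.6% higher with Pax7. For 8 fibroblast markers the sums were 1247 to 1293, 757 to 818 and 622 to 652, with Postn and Col3a1 called lower and Pdgfra called higher under both factors. The 8 macrophage and leukocyte markers gave 430 to 464, 980 to 1083 and 1102 to 1159, and 2 of the 8 were called higher under each factor, Cd68 and Laptm5, while the leukocyte marker Ptprc stayed between 4.63 and 4.78 log2 units on all arrays. Sums for the 7 measured adipocyte markers were 965 to 983, 1691 to 1733 and 1742 to 1810, with Pparg and Lpl higher under both factors. Pparg and Lpl were the brightest of the 7 and weighed most in the sum. With Pax3, 2 of the 7 rose and 5 did not pass, and with Pax7, 4 rose and 3 did not pass. Adipoq had means of 4.42, 4.52 and 4.63 log2 units and Fabp4 of 4.47, 4.53 and 4.56 in control, Pax3 and Pax7 arrays. The 8 endothelial markers gave 381 to 390, 399 to 426 and 422 to 440, with Tek called higher under both factors (means of 4.90, 5.28 and 5.65 log2 units). For the 4 measured Schwann and neuronal markers the sums were 248 to 262, 200 to 222 and 220 to 232, with Tubb3 called lower under both factors (means of 6.76, 5.75 and 6.03).

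Genes with the most similar pattern were found by the root mean square difference between profiles over the 9 arrays, each centred on its own mean. Nearest to Ckm were the matrix proteoglycan biglycan Bgn (0.115 log2 units), the LIM protein Csrp2 (0.116) and triadin Trdn (0.122), a calcium release protein of muscle. Nearest to Ckb were the Notch receptor Notch3 (0.0691), Spats2l (0.0715) and Luzp2 (0.0799). Nearest to Mb were the slow myosin heavy chain Myh7 (0.0613), the carboxypeptidase Cpa4 (0.0771) and the transcription factor Jun (0.0899). Within the 10 genes, Pgam2 was nearest to Ckm (0.377) and to Ckb (0.276), and Ckb was nearest to Mb (0.296).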

How the data were processed

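Per the labels, biotin-labelled total RNA was hybridised to Affymetrix arrays. Log2 intensities that the authors deposited had passed through RMA in R 2.10.0, per the submitters' processing notes; the build and any probe set filter were not given in the sources used here. RMA makes array distributions alike, so a shift shared by most genes would not be seen. Of 25668 probe sets (values 1.93 to 13.23), 20777 carried 1 gene symbol in the platform annotation, 232 several and 4659 none; the brightest probe set per symbol gave 19661 genes.

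Group means were estimated from all 9 arrays together with limma 3.58.1 in R 4.3.3 (residual df 6, prior df 4.37), and p-values were adjusted by Benjamini-Hochberg over all genes. The fit was tested on simulated data. Errors of log2 differences are moderated standard errors. Muscle and other forms were compared by an exact permutation test in SciPy 1.17.1.

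The 10 genes, the lists and the pairs were chosen with earlier results of these data known. Named genes are the 10, the other form of each pair, up to 4 rises and 4 falls per comparison from the 4 pathway lists (72 genes, 65 measured, older symbols matched through RefSeq), 3 nearest patterns each for Ckm, Ckb and Mb, and the checks; Kdm5d and Uty were checked and not described. Marker genes and Phkb, Cox6a2 and Ppargc1a are named as members of their lists, after their values were seen. Alternatives were other spread estimates, scalings, filters, probe set means, a replicate block, a minimum fold and leaving out each array.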

Additional observations from a re-analysis of the deposited data

How the results depend on the processing

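The 30 differences of the 10 genes were recomputed 501 times. Of these values, 486 stayed on the same side of the threshold, 15 lost it and 0 calls reversed. Settings that changed only the spread estimate, filter, block or minimum fold left the log2 difference the same, so none could reverse. The same holds for probe set means, with 1 probe set per gene, and for leaving out an array of the group not compared. Of the losses, 8 came with an array left out (Ampd1 with Pax3 and Phka1 with Pax7). The treat test gave 7, ending both calls of Ampd1 and of Phka1 against control (adjusted p = 1.0 each). It also ended those of Pgam2, Eno3 and Mb between the Pax groups. Requiring more than 1.2-fold with the treat test lowered the genes called from 7780 to 3264 (Pax3 against control), from 8485 to 3819 (Pax7 against control) and from 3316 to 784 (Pax7 against Pax3), and the energy genes called from 7 to 5, from 9 to 7 and from 5 to 2. Leaving out each array in turn gave 6 to 7 energy genes called for Pax3, 8 to 9 for Pax7 and 5 to 5 between them. The counts over all genes were then 6903 to 7753 for Pax3, 7519 to 9253 for Pax7 and 2507 to 4277 between them. With a replicate block, the counts over all genes were 7902, 8707 and 3328, and 0 of the 30 calls changed. Deviations of same-numbered arrays from different groups correlated at -0.026 to 0.22, and those of differently numbered arrays at -0.247 to 0.246. These ranges do not decide whether arrays were paired. The main fit did not take the numbers as pairs. All 243 recomputed differences between muscle and other forms stayed within 1 SD of the reported value. Leaving out an array or adding a replicate block could not move a difference that far. Only repeated quantile normalisation and probe set means could have done so. Without the dimmer 50% of genes, Ckmt2, Ampd1 and Phkg1 were not tested; background signal is not given in the file and limits these 3.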

Other observations

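Regulators and muscle subunits of oxidative metabolism, a list of 19 measured genes, moved in both directions. With Pax3, 8 rose, 5 fell and 6 did not pass, and with Pax7, 7 rose, 5 fell and 7 did not pass. The share called was 68.4% and 63.2%, against 39.6% and 43.2% of all genes. Cox7a1, a muscle subunit of cytochrome oxidase, was at 9.13, 9.35 and 9.25 log2 units in control arrays, 7.997, 7.95 and 7.997 with Pax3 and 7.60, 7.79 and 7.55 with Pax7, and fell 2.40-fold and 3.02-fold (limma adjusted p = 1.01e-07 and 9.97e-09). Prkag3, a muscle subunit of AMP-activated kinase, fell 2.34-fold and 3.83-fold (adjusted p = 7.81e-09 and 1.49e-10). Cox8b, another muscle subunit of the oxidase, fell 1.46-fold with Pax3 and 2.66-fold with Pax7 (adjusted p = 0.000258 and 9.37e-08).

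Not all muscle-type genes of this list fell. The oxidase subunit Cox6a2 was at 7.52, 7.53 and 7.61 log2 units in control arrays, 8.38, 8.23 and 8.45 with Pax3 and 7.88, 7.72 and 7.71 with Pax7, all Pax arrays being above control. It rose 1.74-fold with Pax3 (limma adjusted p = 2.29e-06) and 1.16-fold with Pax7 (adjusted p = 0.0203), the latter call ending without control replicate 1 (0.0698) or 2 (0.0638) or Pax7 replicate 1 (0.0872). Ppargc1a, a coactivator that promotes mitochondrial biogenesis, rose 2.08-fold with Pax3 and 1.93-fold with Pax7 (adjusted p = 2.94e-06 and 5.87e-06), and every Pax array lay above every control array.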
